A study of Mus musculus with 15 samples.

Results

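The collagen crosslinking and processing enzymes are the proteins that modify, fold, trim and crosslink fibrillar collagen after translation. The set was chosen by gene symbol and held 10 genes: P4ha2, Plod1, Plod2, Plod3, Serpinh1, Pcolce, Bmp1, Lox, Loxl1 and Loxl2. Every probe that the platform annotation assigned to 1 of these symbols was taken from both unnormalized signal tables, and each gene's level was set against that of Col1a1, which encodes the alpha 1 chain of type I collagen. Of the 10 genes, 9 had a probe. Loxl2 had none under that symbol and was not analysed here. The 9 genes had 20 probes, of which 16 were measured, meaning that 3 or more arrays gave a detection p-value below 0.05, and each of the 9 had at least 1 measured probe. In the whole series 19057 genes had a probe and 11908 were measured. For each gene the brightest probe stands for the gene unless another is named, and all levels are log2 normalized signal.

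A procollagen chain is modified in the endoplasmic reticulum before it folds. Prolyl hydroxylases stabilise the triple helix, lysyl hydroxylases prepare lysines for crosslinking, and a dedicated chaperone holds the folded helix until export. Outside the cell, proteases remove the terminal propeptides so that fibrils can form, and lysyl oxidases then oxidise lysines and hydroxylysines, from which covalent crosslinks arise. In pancreatic ductal adenocarcinoma (PDAC), a cancer with dense fibrous stroma, fibroblasts and myofibroblasts make most of the fibrillar collagen, and some of these enzymes are also hypoxia-inducible.

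The samples were PDAC tumours from mice that all carry the αSMA-tk transgene, with mixed C57BL/6 and Balb/c genetics. The transgene expresses a viral thymidine kinase from the Acta2 (alpha smooth muscle actin) promoter, so that ganciclovir kills dividing cells that use this promoter, while resting cells are spared. There were 5 groups of 3 arrays. Early ablation received ganciclovir while pancreatic intraepithelial neoplasia, the lesion that precedes PDAC, was present, and its early control received none. Late ablation with anti-CTLA4 combined ganciclovir at the PDAC stage with treatment against CTLA4, which restrains T cells, late ablation received ganciclovir at the PDAC stage alone, and late control received none. No group lacked the transgene, and the labels give neither ages nor the number of animals behind the arrays. The p-values therefore measure the spread between arrays, which may be technical.

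On the 15 arrays, 38.5% to 43.5% of 45281 probes were detected, and array pairs had rank correlations of 0.889 to 0.973. The number of arrays limits the precision. Epithelial markers were measured for 9 of 9 listed genes, fibroblast markers for 12 of 12 and acinar markers for 7 of 10. Acta2 did not differ between ablation and control arrays beyond its error, by 0.74 (SE 0.785, limma adjusted p = 0.817) at the early and -0.05 (SE 0.785) at the late stage. The 3 anti-CTLA4 arrays came in a table of their own, so table and treatment cannot be told apart. Late control array 2 stood low in fibrillar collagen genes, at -1.10 relative to the mean of 15 arrays, and in fibroblast markers, at -0.90, with heat shock genes at 1.09, and the late comparison is also given without it. In bulk tumour RNA, fewer cells of a type and less RNA per cell cannot be told apart.

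**Figure D1:**
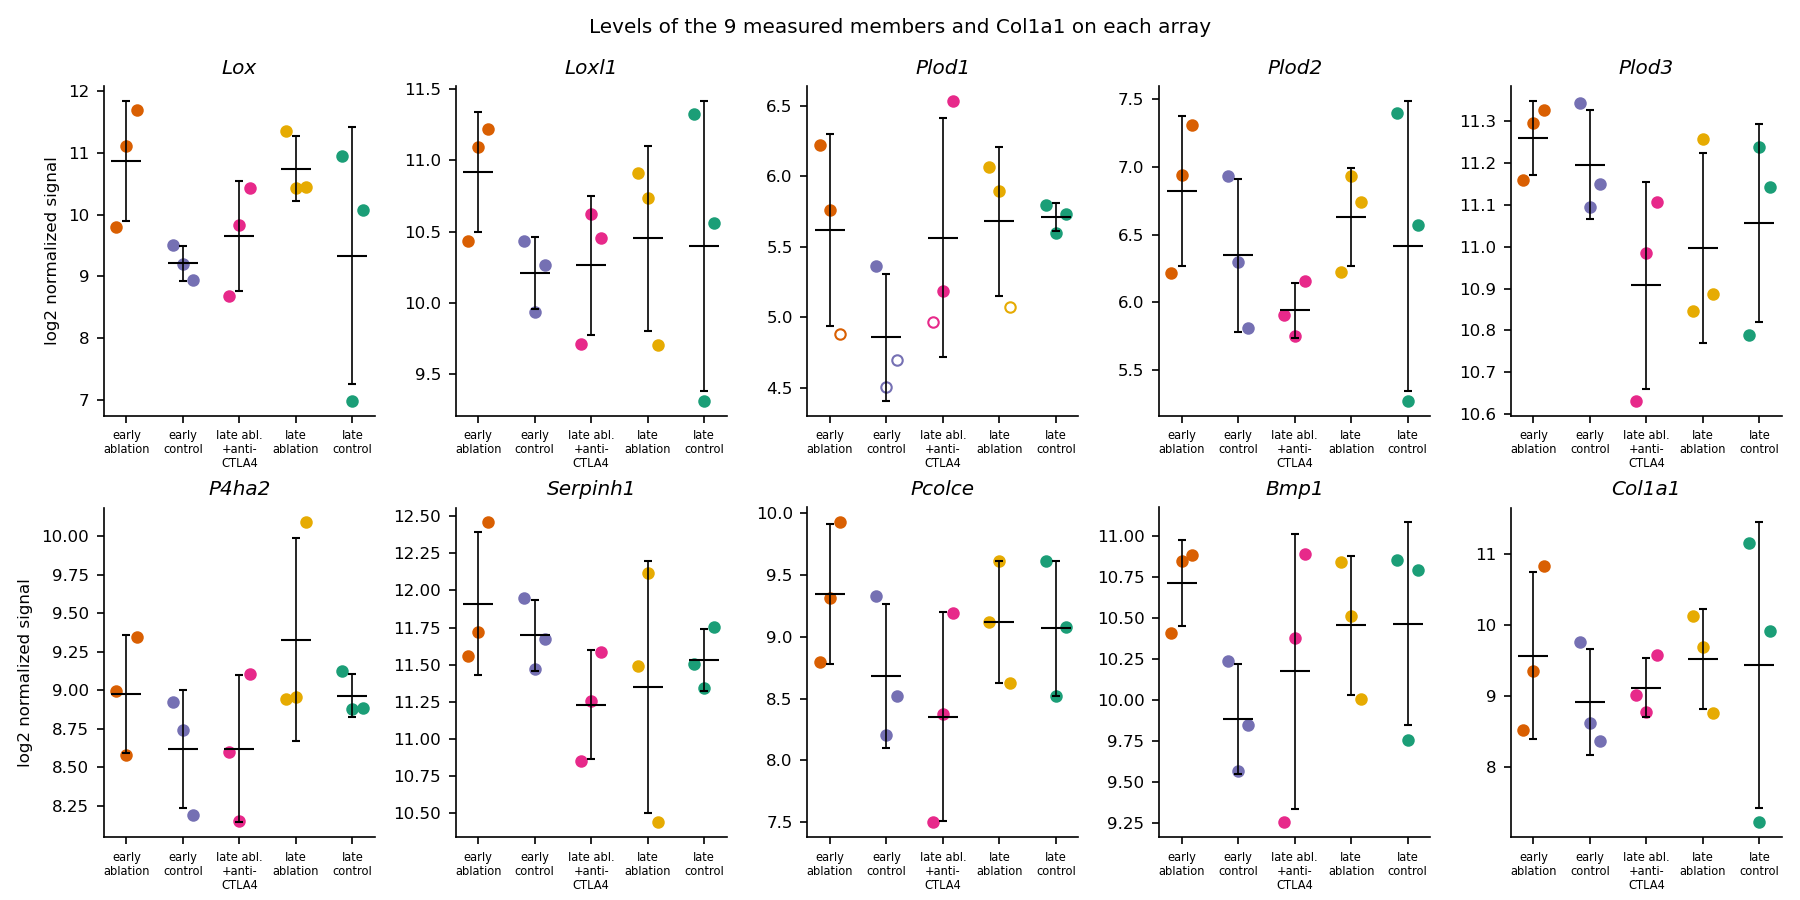
Log2 normalized signal of the 9 measured genes and Col1a1 on each array, with the 5 groups along the horizontal axis. Points are arrays (hollow where the probe was not detected), the horizontal line is the group mean and the bar its SD (n = 3). Lox spans 6.99 to 11.69 and Plod3 only 10.63 to 11.34, and late control array 2 is the lowest point for Lox, Loxl1, Plod2 and Col1a1.

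The first comparison addressed ablation begun at the precursor stage. All 9 measured enzymes had a higher mean on early ablation arrays than on early control arrays, with a median log2 difference of 0.66, but none passed the test across all features. The differences ran between 0.06 for Plod3 and 1.65 for Lox, and Col1a1 differed by 0.66 (SE 0.815). Without early ablation array 3 the enzymes' median was 0.37, with 8 of 9 higher, and Col1a1 differed by 0.02. Over all 15082 features tested the median difference was -0.01 and 49.1% were higher.

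Lox encodes lysyl oxidase, which starts the crosslinking of collagen and elastin. Its level was 9.79, 11.11 and 11.69 on the early ablation arrays, against 9.51, 9.20 and 8.94 on the early control arrays. Every early ablation array was above every early control array, though array 1 of early ablation exceeded the highest control by little. The difference was 1.65 (SE 0.80, limma adjusted p = 0.621) and lay between 1.24 and 2.19 on leaving out 1 array at a time.

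Loxl1 encodes a lysyl oxidase known mainly for crosslinking elastin. Its level was 10.43, 11.09 and 11.22 on early ablation arrays, against 10.43, 9.94 and 10.26 on early control arrays. The groups did not overlap, but only by a margin lost in rounding between early ablation array 1 and early control array 1. The difference was 0.70 (SE 0.453, limma adjusted p = 0.697).

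Bmp1 encodes the protease that removes the C-terminal propeptide of fibrillar procollagens and also activates lysyl oxidase precursors. It was at 10.41, 10.85 and 10.88 on early ablation arrays, against 10.24, 9.57 and 9.85 on early control arrays. Again the groups did not overlap, with a difference of 0.83 (SE 0.398, limma adjusted p = 0.621). The other 3 measured Bmp1 probes were also higher without overlap, by 0.95 (SE 0.454), 1.16 (SE 0.408, limma adjusted p = 0.549) and 0.52 (SE 0.269). The dimmest of these was not detected on any early control array, and allowing for that it was at least 1.1-fold higher on early ablation arrays.

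Pcolce encodes a protein that binds the procollagen C-propeptide and speeds up its removal by Bmp1. It was at 8.80, 9.32 and 9.92 on early ablation arrays, against 9.33, 8.20 and 8.52 on early control arrays, and the overlapping groups differed by 0.66 (SE 0.451). Serpinh1 encodes the collagen chaperone HSP47 and differed by 0.21 (SE 0.365), a sign that turned to -0.06 under 1 of the alternatives tried. Its groups also overlapped.

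Plod1, Plod2 and Plod3 encode the 3 lysyl hydroxylases, of which the product of Plod2 acts on the telopeptides and so on the type of crosslink. Plod2 was at 6.22, 6.94 and 7.31 on early ablation arrays, against 6.94, 6.30 and 5.81 on early control arrays (difference 0.47, SE 0.454). Plod1 differed by 0.76 (SE 0.424), and was detected on 2 of 3 early ablation arrays and 1 of 3 early control arrays. Both genes overlapped between the groups. Plod3, whose product also glycosylates hydroxylysine, was 11.16, 11.30 and 11.33 on early ablation arrays, against 11.34, 11.10 and 11.15 on early control arrays, and so differed by 0.06 (SE 0.193). P4ha2 encodes a catalytic subunit of collagen prolyl 4-hydroxylase and differed by 0.35 (SE 0.336), with overlap.

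Counted together, 0 of 9 enzymes passed limma's adjusted p under 0.05, as did 0% of all features. At an unadjusted p under 0.05 the count was 0 of 9, against 8.14% of all features. Lox, Loxl1 and Bmp1 were the 3 of 9 whose groups did not overlap, against 21.4% of all features. Fibroblast markers were higher in 12 of 12 genes, with a median difference of 0.92. Their mean level was 0.23 to 0.94 on early ablation arrays and -0.68 to -0.23 on early control arrays, relative to the mean of 15 arrays. Macrophage markers were higher in 7 of 8 genes, at 0.27 to 0.89 on early ablation arrays and -0.59 to 0.10 on early control arrays. Smooth muscle markers were higher in 6 of 6 genes, at -0.59 to 1.82 on early ablation arrays and -0.61 to 0.51 on early control arrays. Epithelial markers were lower in 8 of 9 genes, at -0.26 to -0.11 on early ablation arrays and 0.03 to 0.17 on early control arrays, and genes of folding in the endoplasmic reticulum were lower in 8 of 8. On the same scale, acinar markers spanned -3.70 to 1.87 on early ablation arrays and -0.65 to 0.54 on early control arrays, the lowest being early ablation array 1. On that array Lox, Loxl1, Plod2, Plod3, Serpinh1, Pcolce, Bmp1 and Col1a1 were also the lowest of their group, while Plod1 and P4ha2 were not. The part of these lists in the difference was not tested. With each array scaled on its median instead of by quantiles, the median of all features shifted to 0.25 and 78.3% were higher. The enzymes' median was then 0.89.

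**Figure D2:**
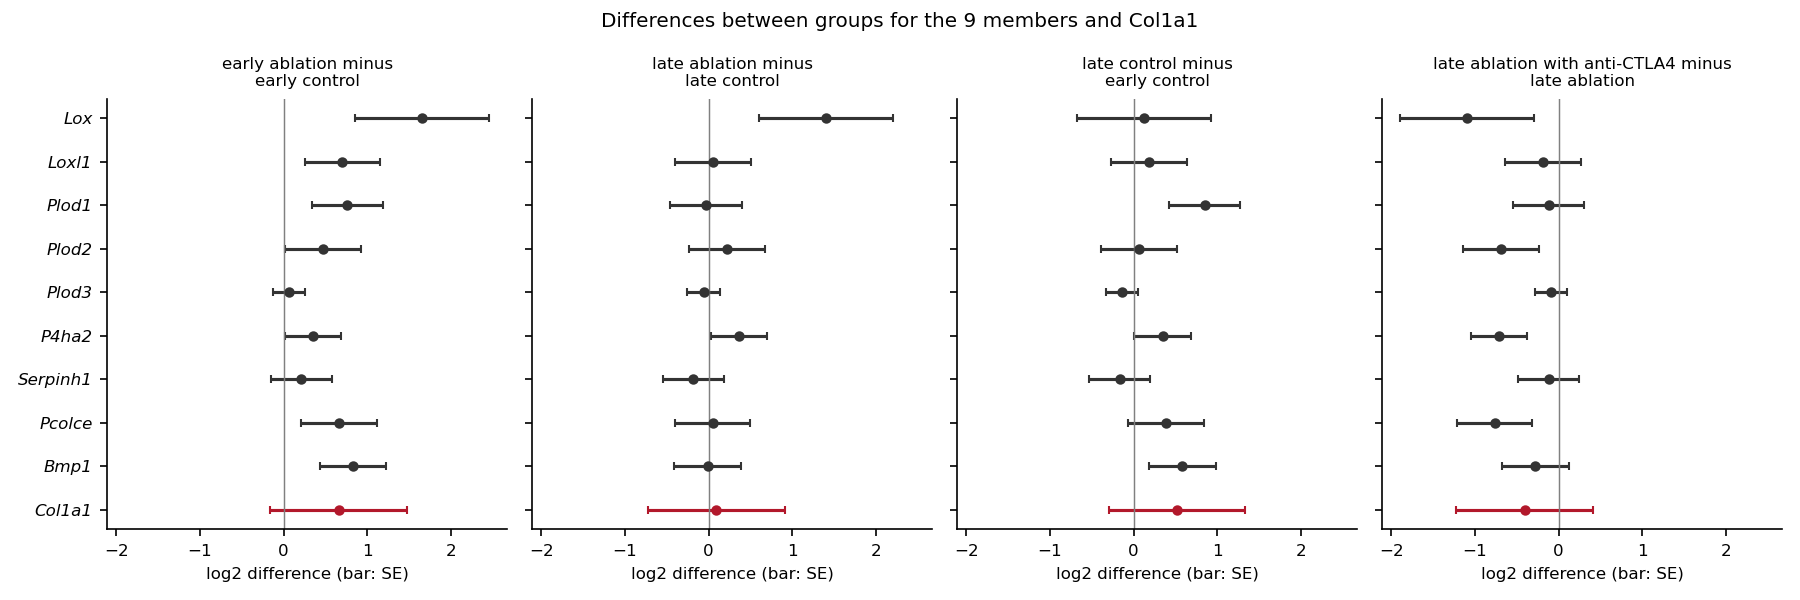
Log2 difference between groups for the 9 enzymes and Col1a1 in 4 comparisons, with the SE of limma as the bar. In the first panel all 9 points lie above 0, and in the last panel all 9 lie below 0, while in no panel did an enzyme pass the test across all features.

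For ablation at the PDAC stage, the enzymes had no common direction. Late ablation arrays had 5 enzymes with a higher and 4 with a lower mean than late control arrays, with a median of 0.05 beside -0.01 over all features, and 7 of the 9 differences lay between -0.18 and 0.22. Without late control array 2 the count was 3 higher and 6 lower, with a median of -0.23. The largest was again that of Lox. It was at 11.35, 10.43 and 10.44 on late ablation arrays, against 10.95, 6.99 and 10.08 on late control arrays, a difference of 1.40 (SE 0.80, limma adjusted p = 1.00). Late control array 2 lay far below all other arrays, and without it the Lox difference was 0.23.

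P4ha2 differed by 0.36 (SE 0.336), and by 0.32 without late control array 2. Plod2 differed by 0.22 (SE 0.454), Loxl1 by 0.05 (SE 0.453), Pcolce by 0.05 (SE 0.451) and Col1a1 by 0.09 (SE 0.815). Without late control array 2 the sign turned for Plod2, at -0.35, Loxl1, at -0.49, Pcolce, at -0.23, and Col1a1, at -1.01. Bmp1 differed by -0.01 (SE 0.398), and by -0.37 without that array. Serpinh1 differed by -0.18 (SE 0.365), and turned to 0.27 under 1 alternative. By limma, 0 of 9 enzymes had an adjusted p under 0.05, as did 0% of all features, and 0 of 9 had an unadjusted p under 0.05, against 2.22% of all features. None of the 9 had groups without overlap, against 4.51% of all features. Equally numbered late arrays deviated together for numbers 1 and 2, with correlations of 0.584 and 0.388, but little for number 3, with 0.136. With the number as a block within the late groups 625 features had an unadjusted p under 0.05, against 335 without it. No feature passed adjustment either way, and Lox had an adjusted p of 0.96 by limma with the block. Fibroblast markers were higher in 5 of 12 genes, with mean levels of -0.63 to 0.28 on late ablation arrays and -0.90 to 0.87 on late control arrays.

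The 2 control groups, which received no ganciclovir, were compared with each other. Early and late name the stage at which their ablation groups were treated. The labels give no ages, so a difference between these controls cannot be assigned to tumour stage. Late control arrays had 7 enzymes with a higher and 2 with a lower mean than early control arrays, with a median of 0.19, against 0.00 over all features. Plod1 was the 1 enzyme whose groups did not overlap. It was at 5.80, 5.60 and 5.73 on late control arrays, against 5.37, 4.51 and 4.70 on early control arrays, all of them lower. The difference was 0.85 (SE 0.424, limma adjusted p = 0.53), and 2 of 3 early control arrays did not detect the probe.

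Bmp1 differed by 0.58 (SE 0.398), Pcolce by 0.39 (SE 0.451) and P4ha2 by 0.35 (SE 0.336). Lox differed by 0.12 (SE 0.80), a value that changed sign under 4 alternatives and was 1.30 without late control array 2. Over the 9 enzymes the median was 0.66 without that array, and -0.0049 without late control array 1, with 4 higher and 5 lower. None of the 9 passed adjustment, as did 0% of all features. An unadjusted p under 0.05 was reached by 0 of 9, against 9.93% of all features, and 1 of 9 did not overlap, against 18.5% of all features. Median scaling shifted the median of all features to 0.15, with 67.1% higher, against 50.4% with quantile scaling.

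The last pairwise comparison asked what anti-CTLA4 added to late ablation. All 9 enzymes had a lower mean with anti-CTLA4, with a median difference of -0.28, beside 0.00 over all features, and none passed the test. Without anti-CTLA4 array 1 the median was 0.05, with 5 higher and 4 lower. On that array Lox, Loxl1, Plod1, Plod3, Serpinh1, Pcolce and Bmp1 had their lowest levels of that group, while Plod2 and P4ha2 did not. With median scaling the median was -0.42.

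Plod2 was the 1 enzyme whose groups did not overlap. Its level was 5.91, 5.75 and 6.16 on anti-CTLA4 arrays, against 6.22, 6.93 and 6.74 on late ablation arrays, a difference of -0.69 (SE 0.454, limma adjusted p = 0.749). A second Plod2 probe, at -0.32 (SE 0.494), did overlap. For Lox the arrays read 8.69, 9.83 and 10.43 with anti-CTLA4, against 11.35, 10.43 and 10.44 with late ablation alone (difference -1.09, SE 0.80). The highest anti-CTLA4 array and the lower late ablation arrays were at nearly the same level.

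Pcolce was at 7.50, 8.37 and 9.19 on anti-CTLA4 arrays, against 9.12, 9.61 and 8.62 on late ablation arrays (difference -0.76, SE 0.451). P4ha2 was at 8.60, 8.15 and 9.11 on anti-CTLA4 arrays, against 8.94, 8.95 and 10.09 on late ablation arrays (difference -0.71, SE 0.336, limma adjusted p = 0.65). Both genes overlapped, and the P4ha2 difference was -0.33 without late ablation array 3. The brightest Bmp1 probe differed by -0.28 (SE 0.398). Another Bmp1 probe did not overlap and differed by -1.06 (SE 0.408, limma adjusted p = 0.527), so the size of the Bmp1 difference depended on the probe.

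Among the 9 enzymes 0 passed adjustment by limma, against 0.00663% of all features, which is 1 feature. At an unadjusted p under 0.05 the count was 0 of 9, against 7.74% of all features. With 1 of 9, the share that did not overlap stood beside 10.3% of all features. Acinar markers were lower in 7 of 7 measured genes, with a median difference of -0.996, and their mean level was -2.21 to 1.23 on anti-CTLA4 arrays and 0.18 to 1.06 on late ablation arrays. Smooth muscle markers were lower in 6 of 6, with a median difference of -0.80, at -1.48 to -0.56 on anti-CTLA4 arrays and -1.04 to 0.70 on late ablation arrays. Hypoxia genes were lower in 12 of 13, but without late ablation array 3 their mean level differed by 0.17. The part of these lists in the result was not tested. In the authors' deposited values, 61.2% of features were higher with anti-CTLA4, against 49.3% after quantile scaling.

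The late and the early effect of ablation were compared in an interaction term. Of the 9 enzymes 8 had a smaller effect at the late stage, with a median of -0.40, beside -0.01 over all features, and P4ha2 alone had a difference above 0, at 0.01 (SE 0.475). Bmp1 had -0.84 (SE 0.563), Plod1 -0.79 (SE 0.60), Loxl1 -0.65 (SE 0.64), Pcolce -0.61 (SE 0.638) and Lox -0.25 (SE 1.13). None of the 9 passed limma's adjusted p under 0.05, as did 0% of all features, or an unadjusted p under 0.05, reached by 4.46% of all features. No difference between the stages in the effect of ablation on these enzymes was detected. Median scaling shifted the median of all features to -0.23, with 27.2% higher, against 49.3% with quantile scaling. With single arrays left out the enzymes' median lay between -0.85, without late control array 2, and -0.12. Among the alternatives and left-out arrays, Lox turned above 0 under 4, at 0.12 to 0.56. Plod2 did so under 3, at 0.0042 to 0.23, and Serpinh1 under 1, at 0.06. P4ha2 turned below 0 under 7.

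The level of each enzyme was then related to Col1a1 over all 15 arrays. This asks whether the processing genes vary together with Col1a1 from array to array. Lox, Loxl1 and Plod2 followed Col1a1 and passed the test over all features, Pcolce and Bmp1 had positive relations that missed it, and Serpinh1, Plod1, P4ha2 and Plod3 had lower r. Of the 16 relations computed, 1 per measured probe, 14 were positive, while over 15081 features the median r was -0.05 and 45.0% were positive.

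Lox had r = 0.816 and rho = 0.711 (permutation p = 2.4e-04 and 0.00382, 100000 resamples, two-sided). Its slope was 0.97 log2 units per log2 unit of Col1a1 (SE 0.172, limma adjusted p = 0.0154). Loxl1 had r = 0.826 and rho = 0.771 (permutation p = 1.6e-04 and 0.00118), with a slope of 0.48 (SE 0.0899, limma adjusted p = 0.0209). Plod2 had r = 0.815 and rho = 0.707 (permutation p = 2.5e-04 and 0.00429), with a slope of 0.49 (SE 0.0949, limma adjusted p = 0.0239), and its second probe had r = 0.852. The slope of Lox was the steepest of the 9, and the slopes were not tested against each other.

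A positive slope passed for 3 of 9 enzymes, against 0.782% of all features. The slopes of the other lists on Col1a1 were not tested, so the relation is not shown to be particular to the enzymes. With group as a term, so that only differences within groups count, Lox had r = 0.904 (limma adjusted p = 0.0122), Plod2 r = 0.865 (adjusted p = 0.0403) and Loxl1 r = 0.85 (adjusted p = 0.0517). That left 2 of 9 enzymes past the threshold, against 0.418% of all features. Over the 12 arrays of the first table r was 0.833 for Lox, 0.878 for Loxl1 and 0.852 for Plod2.

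Both ends of the Col1a1 range came from late control arrays. Col1a1 was at 7.22 on late control array 2 and 11.16 on late control array 1, with a median of 9.35. Without these 2 arrays r was 0.714 for Lox, 0.673 for Loxl1 and 0.646 for Plod2 (permutation p = 0.00651, 0.0127 and 0.0177), but no feature passed limma's test, and the adjusted p was 0.417, 0.665 and 0.727. Single arrays also ended calls. All 3 were lost without early ablation array 3, with adjusted p of 0.0916 to 0.103, and without late control array 2, with adjusted p of 0.138 to 0.141. Loxl1 and Plod2 were lost without late control array 1. The calls over all features thus depended on which arrays were in the fit, and the reason was not tested. Whichever single array was left out, r stayed at 0.709 to 0.847 for Lox, 0.749 to 0.863 for Loxl1 and 0.737 to 0.861 for Plod2.

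**Figure D3:**
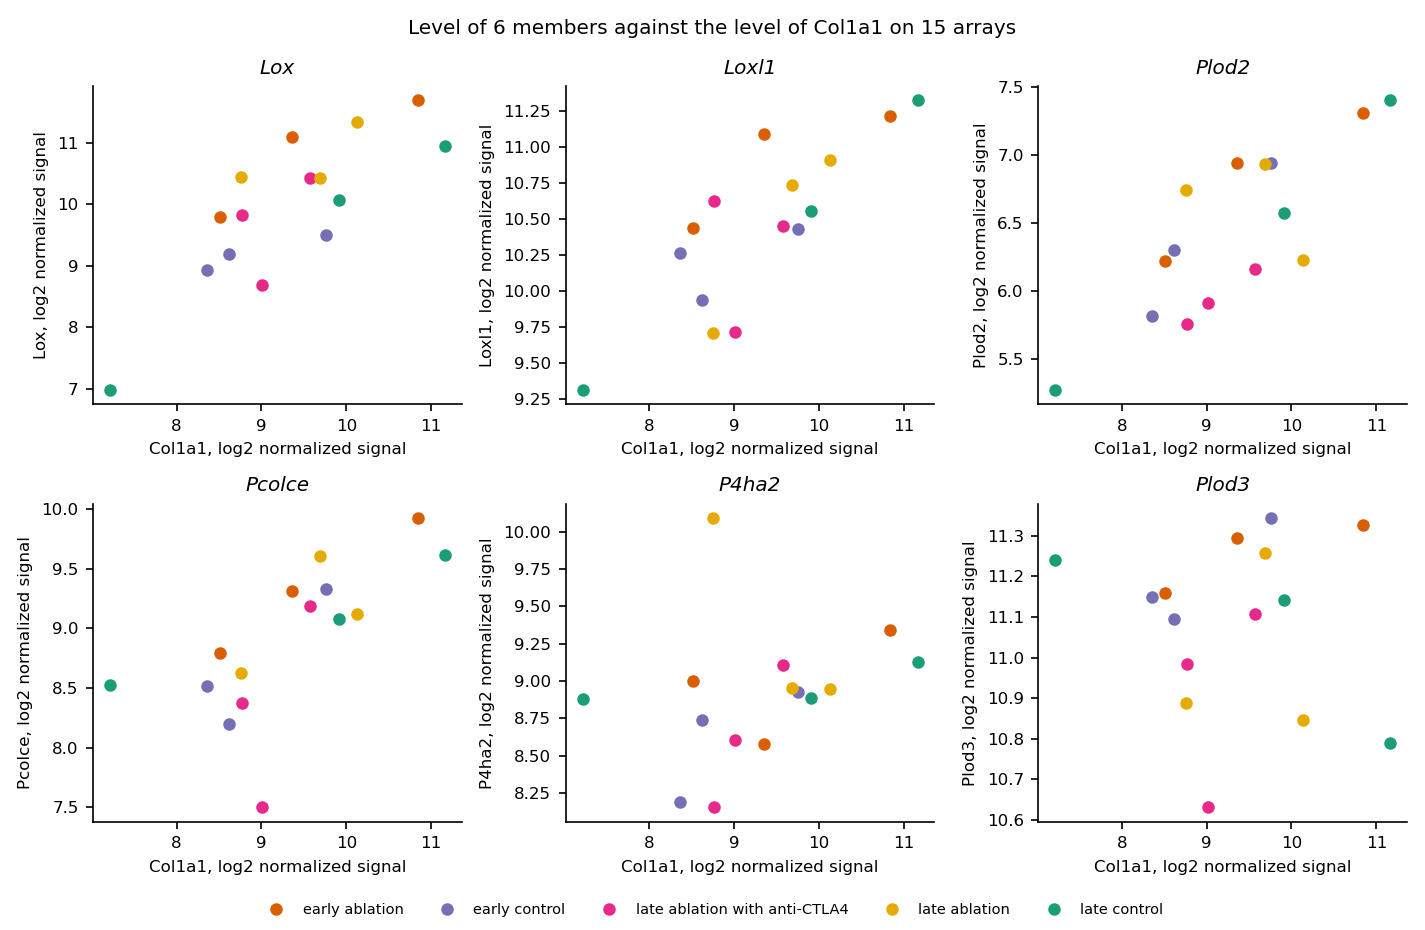
Log2 normalized signal of 6 enzymes (vertical axes) against that of Col1a1 (horizontal axes), with 1 point per array coloured by group. Lox, Loxl1 and Plod2 rise with Col1a1 (r = 0.816, 0.826 and 0.815), late control arrays 2 and 1 lie at the ends, and the slopes of P4ha2 and Plod3 did not pass the test.

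Pcolce had r = 0.699 and rho = 0.75 (permutation p = 0.00388 and 0.00202), and limma's adjusted p of 0.0959 missed the threshold. It passed with median scaling (adjusted p = 0.0491), over the 12 arrays of the first table (0.0464) and without anti-CTLA4 array 1 (0.0268). Bmp1 had r = 0.693 and rho = 0.707 (permutation p = 0.0038 and 0.00431, limma adjusted p = 0.112), and passed with median scaling alone (0.0498). Its other 3 probes had r of 0.70, 0.646 and 0.816. Serpinh1 had r = 0.461 and rho = 0.479 (permutation p = 0.0832 and 0.0735), and its second probe r = 0.605.

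P4ha2 had r = 0.271 and rho = 0.443 (permutation p = 0.325 and 0.101), and r was 0.545 without late ablation array 3. Plod1 had r = 0.217 and rho = 0.296 (permutation p = 0.436 and 0.284), and r was 0.386 without early ablation array 3. Plod3 had r = -0.10 and rho = -0.025 (permutation p = 0.725 and 0.934), and 0.31 without the 2 arrays at the ends of the Col1a1 range. The level of Plod3 had an SD of 0.213 over 15 arrays, against 1.01 for Col1a1. Over the same arrays Plod3 had r = 0.72 with Serpinh1, and the part of its narrow range in its r with Col1a1 was not tested. Plod1 was detected on 10 of 15 arrays, which limits what its r can show.

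**Figure D4:**
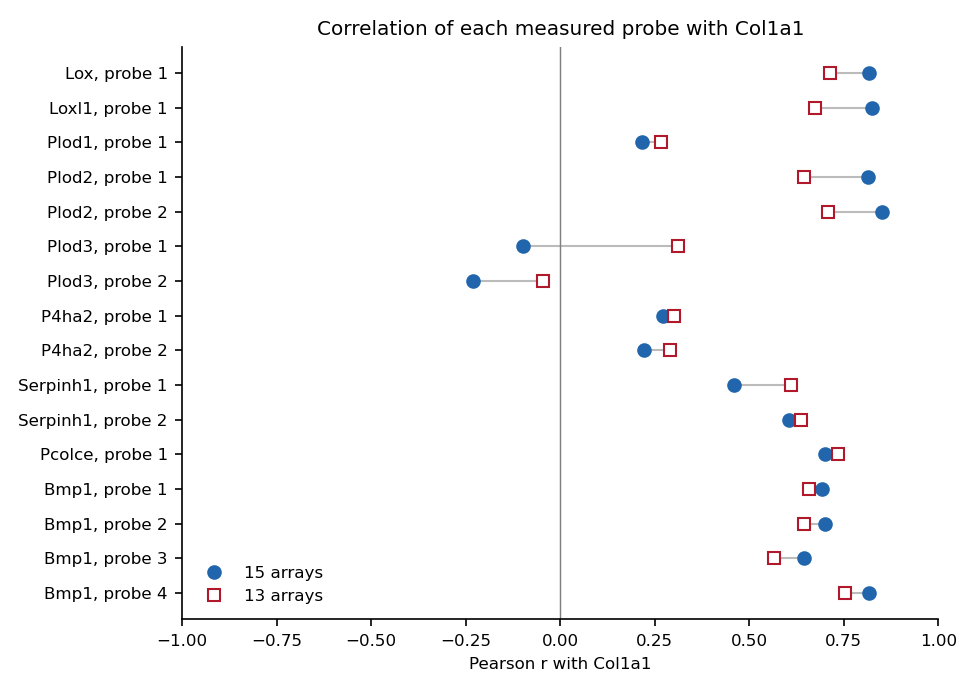
Pearson r of each measured probe with Col1a1 over 15 arrays (filled circles) and over the 13 arrays left without the lowest and the highest Col1a1 array (open squares). Probes of Lox, Loxl1, Plod2, Pcolce and Bmp1 have r between 0.646 and 0.852 over 15 arrays, and both Plod3 probes lie below 0 there.

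Since Lox, Loxl1 and Plod2 followed Col1a1, the enzymes' group differences were also read at an equal Col1a1 level, with Col1a1 as a covariate. This alternative was chosen after seeing the data. Col1a1 was itself measured after treatment, which limits what such values can show. At equal Col1a1, Lox was higher on early ablation than on early control arrays by 1.07 (SE 0.383, limma adjusted p = 0.567). On late ablation arrays it was higher than on late control arrays by 1.32 (SE 0.374, limma adjusted p = 1.00). Leaving out single arrays moved these values between 0.79 and 1.22 at the early and between 0.91 and 1.55 at the late stage. The unadjusted limma p was under 0.05 in both comparisons with all arrays, but it was 0.0924 at the early stage without early control array 1 and 0.0578 at the late stage without late control array 2.

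Lox was the 1 of 9 enzymes with an unadjusted p under 0.05 in either comparison at equal Col1a1, against 7.88% of all features at the early and 2.45% at the late stage. After adjustment 0% of features passed in both. Bmp1 came next at the early stage, with 0.62 (SE 0.321). Loxl1 had 0.40 (SE 0.28) at the early and 0.01 (SE 0.273) at the late stage. Plod2 had 0.17 (SE 0.271) at the early and 0.17 (SE 0.265) at the late stage. The late minus early effect for Lox at equal Col1a1 was 0.25 (SE 0.534), and its difference between anti-CTLA4 and late ablation alone was -0.73 (SE 0.378, limma adjusted p = 0.627).

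P4ha2 had 1 array apart from the rest. Its highest level was 10.09, on late ablation array 3, and its next highest 9.34. Late ablation array 3 also had the highest mean level of the hypoxia list, 1.65 relative to the mean of 15 arrays, where no other array was above 0.50. All 13 measured genes of that list had a higher mean on late ablation than on late control arrays, with a median difference of 0.50, and its mean level was -0.13 to 1.65 on late ablation arrays and -0.31 to 0.37 on late control arrays. Without late ablation array 3 the list's mean level differed by -0.07, against 0.51 with it. The second P4ha2 probe was highest on the same array, at 8.77. Without that array the P4ha2 difference between late ablation and late control was -0.02, against 0.36 with it. Plod2 was 6.74 and Lox 10.44 on late ablation array 3, neither the highest of its group. Both genes are also known hypoxia targets.

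**Figure D5:**
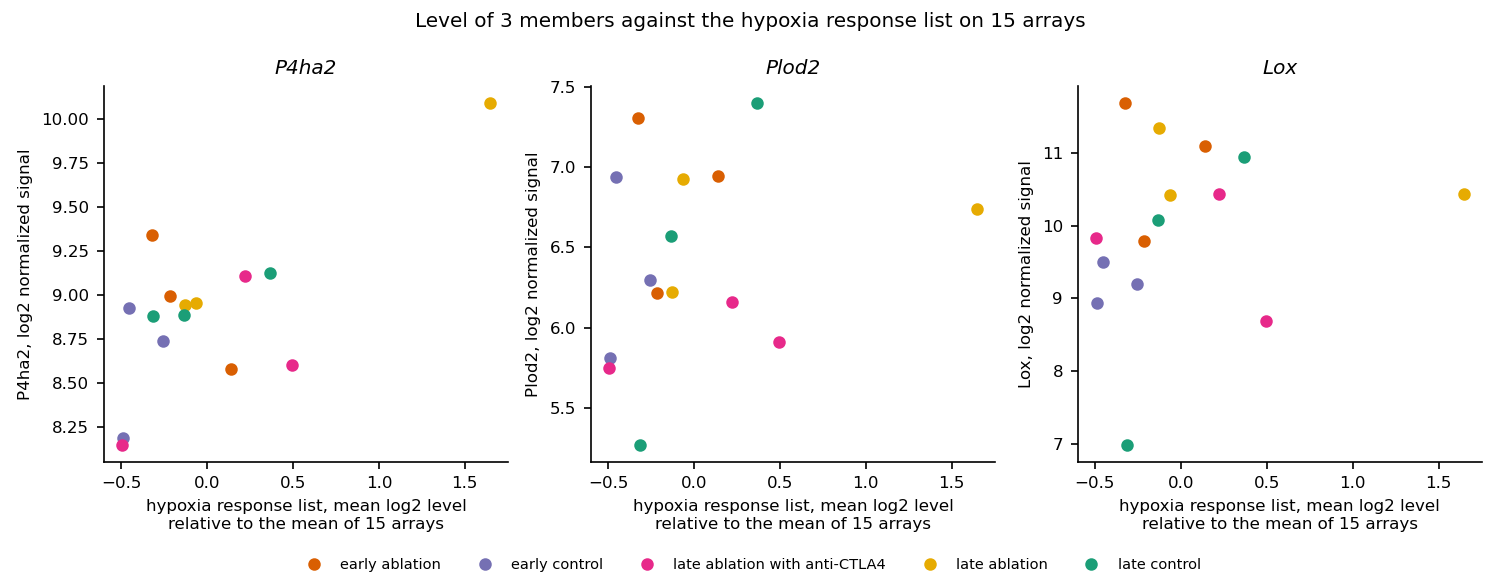
Log2 normalized signal of P4ha2, Plod2 and Lox (vertical axes) against the mean log2 level of 13 measured hypoxia response genes, relative to the mean of 15 arrays (horizontal axis), with 1 point per array. Late ablation array 3 lies at 1.65 on the horizontal axis and is the highest array for P4ha2, at 10.09, while Plod2 and Lox are not highest there.

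The start regions of these genes are shown because P4ha2 was highest where the hypoxia list was highest. The windows hold 250 bases before and 50 after the annotated gene start and come from RefSeq (GRCm38.p6). Windows on 1 chromosome were left out of the set used for the enzymes, so a gene on it could have no window here. In what remained, 5 of the 10 genes had a window. Lox and Plod2 were among the genes without one here, which does not mean that no window exists for them. The windows were searched on both strands for ACGTG, the core of the hypoxia response element, whose reverse complement is CACGT. The letters CACGTG hold both and count as 2 matches. Matches are in capitals. The P4ha2 window, chr11:54100674-54100973 on the plus strand, held 2 matches, at 78 bases before and 11 bases after the start. Plod3, at chr5:136986769-136987068 on the plus strand, had 1 match, and Pcolce, at chr5:137611355-137611654 on the minus strand, had none.
P4ha2: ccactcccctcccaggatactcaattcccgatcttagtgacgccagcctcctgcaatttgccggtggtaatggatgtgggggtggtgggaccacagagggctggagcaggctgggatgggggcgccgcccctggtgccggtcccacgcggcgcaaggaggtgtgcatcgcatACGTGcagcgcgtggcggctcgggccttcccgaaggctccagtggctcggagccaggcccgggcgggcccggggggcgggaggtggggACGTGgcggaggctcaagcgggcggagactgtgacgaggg
Plod3: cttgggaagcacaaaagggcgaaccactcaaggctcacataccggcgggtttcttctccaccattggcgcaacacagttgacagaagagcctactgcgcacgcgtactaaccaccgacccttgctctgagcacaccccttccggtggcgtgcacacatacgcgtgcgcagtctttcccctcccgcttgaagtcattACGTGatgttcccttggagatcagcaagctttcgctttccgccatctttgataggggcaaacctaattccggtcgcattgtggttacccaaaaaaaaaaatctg
Pcolce: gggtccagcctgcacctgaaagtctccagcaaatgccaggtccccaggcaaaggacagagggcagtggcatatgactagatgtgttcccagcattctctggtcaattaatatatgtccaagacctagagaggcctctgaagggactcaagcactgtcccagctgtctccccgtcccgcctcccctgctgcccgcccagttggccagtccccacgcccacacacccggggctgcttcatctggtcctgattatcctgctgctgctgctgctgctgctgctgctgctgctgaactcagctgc
Serpinh1 had 1 match and Plod1 none. Of 32851 windows of this length, 19.6% held at least 1 match and 8.21% at least 2. That count kept the chromosome left out for the enzymes, so the sets are not the same. A match is only a description of the letters, and these sequences were picked after the values had been seen.

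Probes of the same gene did not always go together. Measured P4ha2 probes had r = 0.863 with each other, Plod2 probes 0.774, and the 3 further Bmp1 probes 0.842 to 0.864 with the brightest. Serpinh1 probes had r = 0.455. Plod3 had a dim second probe, detected on 7 of 15 arrays, with r = 0.452. This dim probe was lower on early ablation than on early control arrays without overlap (difference -0.76, SE 0.283, limma adjusted p = 0.567), where the bright probe had 0.06. Between late and early control arrays it differed by -0.61 (SE 0.283), again without overlap. Its value bears on Plod3 only as far as the dim probe measures that transcript, which the annotation does not settle.

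Among themselves, 16 of the 36 pairs of enzymes had r above 0.5 over the 15 arrays, given as a description. The share over all pairs of features was not computed. The highest were Pcolce with Bmp1 (0.849), Loxl1 with Bmp1 (0.843) and Lox with Loxl1 (0.838). Plod3 went with Serpinh1 (0.72) and Pcolce (0.508). P4ha2 had no pair above 0.5, its highest being Plod2 at 0.482 and its lowest Serpinh1 at -0.19. Lox, Loxl1, Bmp1 and Pcolce, whose products act outside the cell, had r of 0.684 to 0.849 among themselves. They were not set apart by this. Plod2, whose product acts inside the cell, had r of 0.757 with Lox, 0.746 with Pcolce, 0.689 with Loxl1 and 0.558 with Bmp1. Serpinh1, also acting inside, had 0.721 with Pcolce and 0.335 with Lox.

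The genes most like each enzyme were ranked by Pearson r over the 15 arrays, among all features with a symbol. Lox was most like Rgcc (0.949), Ddah1 (0.932) and Sparc (0.925), the last a collagen-binding matrix protein. Loxl1 was most like Fstl1 (0.973), Col6a1 (0.96), a chain of type VI collagen, and Sparc (0.947). Plod2 was most like Ddah1 (0.857), Col5a1 (0.847), a fibrillar collagen chain, and Cpxm1 (0.826).

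For Pcolce the nearest were Col3a1 (0.908), a fibrillar collagen, Stab1 (0.898), a scavenger receptor of macrophages and endothelium, and Gpc1 (0.892). Bmp1 was most like Zg16 (0.947) and Abat (0.942), followed by Stab1 (0.928). P4ha2 was most like Trib3 (0.862), a stress-induced pseudokinase, Prkab2 (0.835) and Pdk1 (0.814), a kinase that is itself on the hypoxia list.

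Serpinh1 was most like Mrto4 (0.893), Grrp1 (0.881) and Dcakd (0.846). Plod3 was most like Prmt5 (0.916), an arginine methyltransferase, Snrpf (0.903), a splicing protein, and Ext2 (0.901). Plod1, detected on 10 arrays, was most like Prr3 (0.903), Rpl34 (0.848) and Bik (0.825).

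Other genes of collagen modification and crosslinking had no common direction at the early stage. Of 24 listed genes 15 were measured, and 6 had a higher and 9 a lower mean on early ablation arrays, with a median of -0.03. At an unadjusted p under 0.05 there was 1 higher gene, Fkbp14, a prolyl isomerase that acts on collagen, by 1.04 (SE 0.421, limma adjusted p = 0.581). Crtap, a partner in prolyl 3-hydroxylation, was higher by 0.72 (SE 0.381). At the late stage 11 were higher and 4 lower on ablation arrays, with a median of 0.07. There Colgalt1, a collagen galactosyltransferase, differed by -0.84 (SE 0.281, limma adjusted p = 1.00) and Tgm2, a transglutaminase, by -0.52 (SE 0.314).

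With anti-CTLA4, 5 of the 15 were higher and 10 lower than with late ablation alone, with a median of -0.29. P3h1, a prolyl 3-hydroxylase, differed by -0.77 (SE 0.29, limma adjusted p = 0.541) and Pcolce2, a relative of Pcolce, by -0.50 (SE 0.221). Between late and early controls 8 were higher and 7 lower, with a median of 0.06, and P3h2 differed by -0.53 (SE 0.195) and Pcolce2 by -0.47 (SE 0.221). In the interaction term 8 were above and 7 below 0, with Tgm2 at -1.03 (SE 0.444) and Colgalt1 at -0.77 (SE 0.397). No gene of the list passed adjustment in any of the 5 comparisons.

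Of the fibrillar collagens and elastin, 8 of 10 listed genes were measured. On early ablation arrays 7 were higher and 1 lower than on early control arrays, with a median of 0.77, close to the 0.66 of the enzymes. Col5a2 differed by 1.22 (SE 0.586), and Col11a1, a dim fibrillar collagen, by -0.43 (SE 0.182). On late ablation arrays 5 were higher and 3 lower than on late control arrays (median 0.13), with Col3a1 at 0.51 (SE 0.667) and Col11a1 at 0.18 (SE 0.182). With anti-CTLA4 1 was higher and 7 lower than with late ablation alone (median -0.47), with Col1a2 at -1.70 (SE 0.728, limma adjusted p = 0.60) and Col3a1 at -1.01 (SE 0.667). Between late and early controls Col11a1 differed by -0.63 (SE 0.182, limma adjusted p = 0.305) and Col5a3 by 0.63 (SE 0.301). In the interaction term Col11a1 had 0.60 (SE 0.258) and Eln, elastin, -1.25 (SE 0.86). None of these collagen differences passed adjustment.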

How the data were processed

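RNA from 15 PDAC tumour samples was extracted with Trizol and hybridised as biotinylated cRNA to Illumina bead arrays, per the labels' protocols. The 2 deposited tables, 1 of 12 and 1 of 3 arrays, give for each probe an unnormalized signal intensity and a detection p-value. GenomeStudio was used, per the submitters' processing notes, and its version is not given in the sources used here. In the deposited value table, intensity is linear in the unnormalized signal of each array. The authors' slopes and offsets are not stated. Of the probes, 34885 carry 1 symbol, 18 several and 10378 none, in the platform annotation.

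All 15 arrays were processed together. Signals were background corrected by normexp from the detection p-values (offset 16), then quantile normalized and log2 transformed (limma 3.58.1, R 4.3.3). The brightest probe stood for each symbol, and 15082 features were tested, for each of which 3 or more arrays gave a detection p-value below 0.05. Group means were fitted with lmFit and eBayes, two-sided, with Benjamini-Hochberg adjustment over all features and a threshold of 0.05. The slope on Col1a1 was fitted in the same way, and r and rho were given permutation p-values whose smallest possible value is 1e-05. The permutations exchanged arrays freely, without regard to group, table or array number. Their p-values therefore take the arrays as independent, and may be too small where arrays are not. Lists were described by counts, medians and the mean of their measured genes on each array, centred over the 15 arrays. Comparisons with a group in common use the same arrays of it.

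The enzymes and lists were chosen with earlier results of these data known. Named beside the enzymes and Col1a1 were, per comparison, the 2 genes with the smallest unadjusted p among other processing genes and among fibrillar collagens, and the 3 genes most like each enzyme. Further genes and probe disagreements were singled out after their values were seen. The pipeline was tested on simulated data. Deviations of equally numbered arrays from their group means had correlations of 0.584, 0.388 and 0.136 in the late pairs, and -0.08, -0.14 and 0.153 in the early pairs. The late pairs were taken as pairing, although 0.136 was no higher than 0.153 in an early pair. Late arrays numbered 1 also had the lowest median signal of their group, 96.2 for late control and 99 for late ablation. What equal numbers share was not tested. No 2 arrays held identical values. Alternatives covered scaling, background, offset, the authors' values, filters, array weights, blocks, the groups in the fit and each array left out.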

Additional observations from a re-analysis of the deposited data

How the results depend on the processing

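No enzyme passed the test of a group difference under any of 27 alternatives and left-out arrays. Of 819 such values for single enzymes, 62 had the other sign, in differences that had not passed. The number of features called in early ablation against early control, 0 as reported, was 6 with median scaling, 1 with the authors' values, 68 with array weights, 1 with only the compared groups fitted, and 0 to 22 with single arrays left out. Late ablation against late control had 0 throughout. Late against early control, 0 as reported, had 286 with array weights and 0 to 1 with single arrays left out. Anti-CTLA4 with late ablation against late ablation alone, 1 as reported, had 2 with median scaling, 5 with the authors' values, 7 without the detection filter, 18 with array weights, 5 with each probe as its own feature, 5 with Col1a1 as a covariate (added after seeing the data) and 1 to 9 with single arrays left out. The interaction term, 0 as reported, had 0 to 7. The slope on Col1a1, 131 features as reported in either direction, had 242 with median scaling, 44 without the detection filter, 78 with the replicate block, 70 with group as a term, 0 without the 2 arrays at the ends of the Col1a1 range, and 8 to 192 with single arrays left out. The replicate block changed no other call.

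The enzymes' median difference with single arrays left out was 0.37 to 0.81 for early ablation, -0.23 to 0.32 for late ablation, -0.0049 to 0.66 for late against early control, -0.64 to 0.05 with anti-CTLA4, and -0.85 to -0.12 for the interaction term. For the slope, Plod2 had an adjusted p of 0.0504 by limma without the detection filter. Leaving out arrays for the counts of enzymes, for Col1a1 and for the lists was added after seeing the data. The causes of these changes were not tested. Plod1, the dim Plod3 probe and the dimmest Bmp1 probe lie near background, so detection limits their values.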
